A study of Mus musculus with 9 samples.

Results

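The cathepsins described here are 9 lysosomal proteases, Ctsa, Ctsb, Ctsc, Ctsd, Ctsh, Ctsk, Ctsl, Ctss and Ctsz, followed in white adipose tissue (WAT) of lean and obese male mice. A gene was taken as measured where a row of the array table carried its symbol in the platform annotation. By this rule 8 of the 9 were measured, each by 1 row, among 19505 genes with a symbol; no row carried the symbol of Ctsd, which is not analysed here. Each value is a log2 signal, so that a difference of 1 is a doubling of signal.

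RNA came from 9 mice hybridized singly to Clariom S arrays, with 3 mice in each group. The wild type group was of strain C57BL/6JHamSlc-+/+ and received vehicle. The ob/ob vehicle group was of strain C57BL/6JHamSlc-ob/ob, whose mice lack functional leptin, and received vehicle. The third group was ob/ob mice given VE, an extract of Vigna umbellata, at 100 mg/kg by oral gavage. Dosing ran for 6 weeks on standard chow, in mice bought at the age of 6 weeks and acclimatized for 1 week, so that all mice shared sex, diet and age at purchase. Leptin deficiency acts in the whole animal, and no lean group received VE. The labels do not name the fat depot, and the arrays read bulk tissue, in which fewer cells of a type and less RNA per cell cannot be told apart.

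Cathepsins are made as inactive precursors, carried to the lysosome by mannose 6-phosphate receptors, and activated there by cleavage at acid pH. Most are papain-like cysteine proteases: Ctsl, Ctss, Ctsk and Ctsb cut within proteins, whereas Ctsz, Ctsh and Ctsc mainly trim their ends. Ctsd is an aspartic protease and Ctsa a serine carboxypeptidase. In adipose tissue, macrophages are a rich source of several of them, and adipocytes also make some. Cystatins and stefins hold the cysteine cathepsins in check, and transcription factors of the Tfeb family bind E-boxes in promoters of many lysosomal genes.

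The tissue read as adipose on every array, with Adipoq, which encodes adiponectin, between 17.93 and 19.06. Array medians lay between 6.11 and 6.26. Arrays correlated over all transcript clusters at 0.933 to 0.956 within the wild type group, 0.980 to 0.987 within the ob/ob vehicle group and 0.982 to 0.988 within the ob/ob VE group. The wild type arrays also carried epithelial signal. Of 13 measured epithelium markers, 12 were lower in the ob/ob vehicle group than in wild type, and their summed log2 signal was 14.97, 16.20 and 13.36 on wild type arrays 1, 2 and 3 against 8.89 to 9.0 in ob/ob vehicle and 8.48 to 9.45 in ob/ob VE mice. The defining marker Cdh1 read 13.32, 14.09 and 9.90 on the wild type arrays, and Epcam 10.86, 11.15 and 9.91. Wild type array 3 had the least summed epithelial signal, though not the lowest value of every marker. Elf3 read 6.69, 7.44 and 7.46 on wild type arrays 1, 2 and 3. For the cathepsins, and for related genes where it changed a call, differences of ob/ob vehicle are also given against wild type array 3 alone. This alternative was added after the data were seen. In it the lone array is assumed to vary like the other groups. The part of the epithelial signal in the differences below was not tested.

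Promoter windows of 300 bases, 250 before to 50 after a transcription start, were taken from RefSeq (GRCm38.p6) for the 6 measured cathepsins that have one; Ctsb and Ctsh had none in the table. Each was read for the E-box CACGTG, its extended form TCACGTGA, which contains it, and GAGGAAGT, the core of the site of the myeloid factor PU.1, on both strands. These 3 motifs occur in 7.15%, 0.974% and 3.2% of all 32851 windows. The windows of Ctsa and Ctsl are shown because they hold the E-box, printed in capitals. That of Ctsa lies at chr2:164833523-164833822 on the plus strand, and its E-boxes begin at positions -12 and 6 from the start, each inside a TCACGTGA. That of Ctsl lies at chr13:64370471-64370770 on the minus strand, with 1 E-box at -236.
Ctsa promoter: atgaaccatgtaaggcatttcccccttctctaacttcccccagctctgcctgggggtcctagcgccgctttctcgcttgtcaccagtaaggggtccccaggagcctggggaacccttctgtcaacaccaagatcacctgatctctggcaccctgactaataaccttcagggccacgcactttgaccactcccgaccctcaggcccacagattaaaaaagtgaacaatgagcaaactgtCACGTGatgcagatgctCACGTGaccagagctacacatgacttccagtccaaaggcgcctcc
Ctsl promoter: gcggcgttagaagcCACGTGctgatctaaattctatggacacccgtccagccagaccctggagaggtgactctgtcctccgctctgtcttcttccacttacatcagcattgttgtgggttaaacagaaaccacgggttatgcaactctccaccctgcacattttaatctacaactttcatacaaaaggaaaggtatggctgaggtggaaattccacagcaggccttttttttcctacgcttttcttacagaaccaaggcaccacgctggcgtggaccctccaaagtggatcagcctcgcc
Ctss and Ctsc hold no E-box in their windows, but each holds GAGGAAGT on the strand opposite to the gene, so that the capitals below read as its reverse complement. The Ctss stretch comes from the window chr3:95526536-95526835 on the plus strand, where the motif begins at -2. The Ctsc stretch comes from chr7:88277835-88278134 on the plus strand, with the motif at -151.
Ctss motif: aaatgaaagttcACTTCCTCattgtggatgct
Ctsc motif: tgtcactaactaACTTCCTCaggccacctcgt
The windows of Ctsk and Ctsz hold none of the 3 motifs, and neither does a further window of Ctsa. The window of Ctsd holds 2 E-boxes. A match is a string of letters and was not tested for binding in this tissue.

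WAT of vehicle-treated ob/ob mice had higher Ctss, Ctsk, Ctsz, Ctsa, Ctsb and Ctsl signals than that of wild type mice, by 6.50-fold for Ctsl up to 44.3-fold for Ctss. Ctsh and Ctsc had positive differences that did not pass the test. Thus 6 of 8 measured cathepsins were called higher and 0 lower, where 9.02% of all 19572 transcript clusters tested were called higher and 5.05% lower. The median difference of the 8 was 3.36, beside -0.04 over all clusters. In the same 6 genes every ob/ob vehicle array lay above every wild type array, a pattern found in 15.7% of all clusters. A call is an adjusted p under 0.05 in limma, and errors on differences are standard errors.

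Among the endopeptidases, Ctss, which trims the invariant chain of MHC class II in antigen-presenting cells and stays active at neutral pH, showed the largest difference of the 8. Its log2 signal was 9.82, 10.71 and 11.21 in wild type, 16.31, 15.83 and 16.01 in ob/ob vehicle, and 16.58, 15.69 and 16.24 in ob/ob VE mice. All 6 ob/ob arrays lay far above the 3 wild type arrays, and the ob/ob groups overlapped each other. Between ob/ob vehicle and wild type the difference was 5.47 ± 0.37 (95% interval 4.65 to 6.29, n = 3 and 3; limma adjusted p = 2.18e-05), and 4.84 against wild type array 3 alone.

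Ctsk, the collagen-cleaving cathepsin of osteoclasts, which also degrades elastin, followed the same pattern. It read 7.14, 7.44 and 8.19 in wild type, 12.63, 12.97 and 12.30 in ob/ob vehicle, and 12.75, 12.92 and 12.70 in ob/ob VE mice. Again no ob/ob array came near the wild type range, and the spread among ob/ob VE arrays was small. The difference between ob/ob vehicle and wild type was 5.04 ± 0.30 (4.37 to 5.72), or 33.0-fold, with a limma adjusted p of 1.4e-05, and 4.44 against wild type array 3 alone. Ctsk and Ctss are neighbouring protein-coding genes on chromosome 3 in the RefSeq annotation.

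Ctsl, a broad-acting lysosomal endopeptidase, had the smallest difference of the 6 called genes. Its signal was 12.52, 13.11 and 14.18 in wild type, 16.02, 15.77 and 16.12 in ob/ob vehicle, and 16.32, 16.14 and 15.74 in ob/ob VE mice. The groups of ob/ob mice stood above all wild type arrays, of which array 3 was closest to them. The difference was 2.70 ± 0.38 (1.85 to 3.55; limma adjusted p = 0.00127), and it shrank to 1.79 against wild type array 3 alone, where it still passed (adjusted p = 0.00755).

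Ctsb, which acts as an endopeptidase and as a dipeptidyl carboxypeptidase, read 15.71, 15.87 and 16.74 in wild type, 18.84, 19.22 and 18.88 in ob/ob vehicle, and 19.02, 19.05 and 18.83 in ob/ob VE mice. Every ob/ob value was well above the highest wild type value. The ob/ob values were near the top of the scale, since the brightest cluster of an array read 19.3 to 19.91, and whether signal saturation compressed them was not tested. The difference was 2.87 ± 0.29 (2.23 to 3.52), or 7.33-fold, with a limma adjusted p of 1.76e-04, and 2.24 against wild type array 3 alone.

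Of the enzymes that trim protein ends, Ctsz, a carboxypeptidase common in myeloid cells, read 9.25, 8.93 and 10.60 in wild type, 14.44, 14.17 and 13.64 in ob/ob vehicle, and 14.04, 14.32 and 14.21 in ob/ob VE mice. The ob/ob arrays were all above the wild type arrays. The difference was 4.49 ± 0.41 (3.59 to 5.39), or 22.5-fold, with a limma adjusted p of 9.31e-05, and 3.48 against wild type array 3 alone.

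Ctsh, mainly an aminopeptidase, read 11.17, 11.99 and 10.77 in wild type, 12.57, 12.01 and 11.98 in ob/ob vehicle, and 12.70, 11.88 and 11.67 in ob/ob VE mice. The groups overlapped: wild type array 2 lay just above the lowest ob/ob vehicle array. The difference of 0.88 ± 0.38 (0.04 to 1.71) did not pass after adjustment (limma adjusted p = 0.157), though its unadjusted p was 0.0416. Against wild type array 3 alone it was 1.42 with an adjusted p of 0.0707. Ctsh was lowest on wild type array 3, where the other 7 measured cathepsins were highest among the wild type arrays.

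Ctsc, the dipeptidyl peptidase that activates granule serine proteases of neutrophils, mast cells and cytotoxic lymphocytes, varied widely among mice. It read 13.42, 14.17 and 15.55 in wild type, 14.36, 15.20 and 15.76 in ob/ob vehicle, and 15.63, 14.91 and 14.90 in ob/ob VE mice. Wild type array 3 lay above 4 of the 6 ob/ob arrays, and the groups overlapped. The difference was 0.73 ± 0.53 (-0.45 to 1.91; limma adjusted p = 0.422). It was 1.31 without wild type array 3 (adjusted p = 0.0624), 0.25 without wild type array 1, and -0.44 against wild type array 3 alone (adjusted p = 0.678), so its sign rested on which wild type arrays were used.

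Ctsa, the carboxypeptidase that also shields the sialidase Neu1 in a complex with beta-galactosidase, read 8.25, 9.08 and 10.15 in wild type, 12.76, 13.83 and 12.45 in ob/ob vehicle, and 12.61, 13.23 and 12.76 in ob/ob VE mice. All ob/ob arrays lay above all wild type arrays. The difference was 3.85 ± 0.49 (2.76 to 4.94), or 14.5-fold, with a limma adjusted p of 6.83e-04, and 2.86 against wild type array 3 alone. Its partner Neu1 was not called, with a difference of -0.08 ± 0.46 (adjusted p = 0.931).

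**Figure D1:**
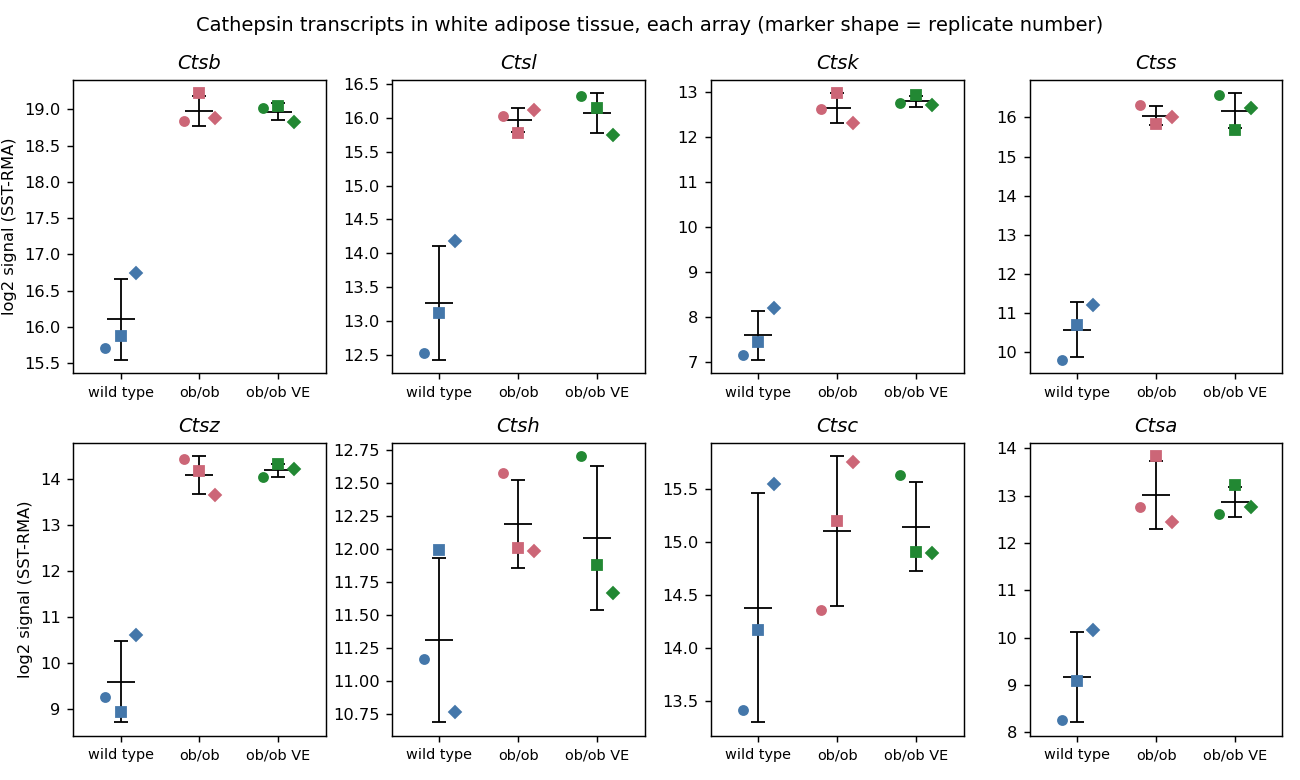
Log2 signal (vertical axis, own scale in each panel, not starting at 0) of the 8 measured cathepsins on each of the 9 arrays, by group; marker shapes give the replicate number, and the horizontal line with bars is the mean ± SD of 3 arrays. In 6 panels all ob/ob points stand above all wild type points, while the groups overlap for Ctsh and Ctsc, and the 2 ob/ob groups overlap in every panel.

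The 8 genes thus differed in size of response. Over the 9 arrays, each gene was centred on its own mean and pairs were compared by the root mean square of the differences in log2 units. Ctsb and Ctsl were the closest pair at 0.26, followed by Ctsk and Ctsz at 0.39 and by the neighbours Ctsk and Ctss at 0.42. Ctsc and Ctss were the farthest apart at 2.31. By the same measure, the genes nearest to the median profile of the cathepsins were Myo5a, which encodes a myosin motor, at 0.17, then H2ac24 at 0.20, Pxmp4 and Myo1g at 0.22 each, and Lrp12 at 0.23. For single cathepsins the nearest gene was Fcgr3, an Fc receptor, for Ctss (0.31), Mfge8 for Ctsk (0.26), Cyth4 for Ctsz (0.30), P2rx7 for Ctsa (0.27), Lrp12 for Ctsb (0.14) and Snx10 for Ctsl (0.20). Phospho2 was nearest to Ctsh (0.20) and Fmr1 to Ctsc (0.17). These likenesses rest on 9 arrays that share the same group difference, and they are a description.

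No cathepsin differed detectably between VE-treated and vehicle-treated ob/ob WAT. The differences between ob/ob VE and ob/ob vehicle ran from -0.15 for Ctsa to 0.16 for Ctsk, with a median of 0.07 beside -0.02 over all clusters. Quantile normalization turned the sign of this median (-0.12), so no direction is read from it. By limma, 0 of 8 were called and 0 had an unadjusted p under 0.05, where 0.0255% of all clusters were called in either direction and 893 clusters had an unadjusted p under 0.05. In 0 of the 8 did the groups separate, against 12.6% of all clusters in either direction.

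The intervals give the sizes that 3 mice a group leave possible. For Ctsb the 95% interval of the difference was -0.66 to 0.63 and for Ctsk -0.52 to 0.83. For Ctss it was -0.70 to 0.94, for Ctsl -0.75 to 0.95 and for Ctsz -0.80 to 1.01. Those of Ctsh (-0.94 to 0.73), Ctsa (-1.24 to 0.94) and Ctsc (-1.14 to 1.22) were the widest. Each interval includes 0, and changes of up to about 1 log2 unit lie within most of them, so these data do not show that the treated and untreated groups were alike. With only the 2 ob/ob groups fitted, the standard error of each cathepsin difference was smaller. It fell from 0.53 to 0.36 for Ctsc and from 0.41 to 0.25 for Ctsz. In ob/ob vehicle against wild type, fitting only the 2 groups compared raised the error of every measured cathepsin but Ctsh. For Ctsz it rose from 0.41 to 0.46, and the limma adjusted p of Ctsk rose from 1.4e-05 to 3.96e-04.

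Against wild type, ob/ob VE mice had the same 6 cathepsins higher. The differences were 5.59 ± 0.37 for Ctss, 5.20 ± 0.30 for Ctsk, 4.60 ± 0.41 for Ctsz, 3.71 ± 0.49 for Ctsa, 2.86 ± 0.29 for Ctsb and 2.80 ± 0.38 for Ctsl, with limma adjusted p from 1.16e-05 (Ctsk) to 9.27e-04 (Ctsl). Ctsh (0.77, adjusted p = 0.177) and Ctsc (0.77, adjusted p = 0.339) did not pass, but Ctsc did without wild type array 3 (1.35, adjusted p = 0.0457). In this comparison 12.4% of clusters were called higher and 7.58% lower, and the groups separated upward in 19.5%, against 6 of 8 cathepsins on either count. Centring each array on its median shifted all differences of this comparison by 0.11 and changed none of these calls. The comparison shares its wild type arrays with the first comparison, so the values of the ob/ob groups are given side by side and not as independent evidence. In order of level, each of the 6 genes was lowest in wild type, and ob/ob vehicle and ob/ob VE did not differ beyond their spread.

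**Figure D2:**
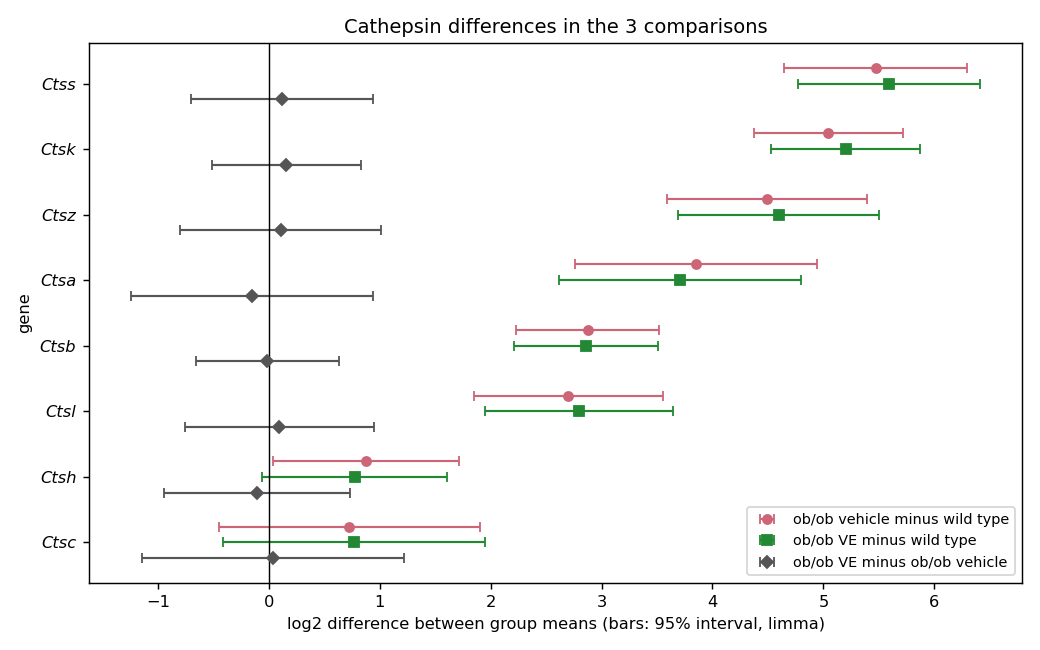
Log2 difference between group means (horizontal axis) for the 8 measured cathepsins (vertical axis), with bars for the 95% interval from limma, in the 3 comparisons (3 arrays a group). Both comparisons with wild type lie at 2.70 or above for 6 genes, and every interval of ob/ob VE minus ob/ob vehicle spans 0.

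The other cathepsins on the array were not called. Of Ctse, Ctsf, Ctsg, Ctso and Ctsw, 0 of 5 passed limma's test in ob/ob vehicle against wild type, 1 had an unadjusted p under 0.05, and the median difference was 0.08. Ctsf, a lysosomal cysteine protease, came closest: it read 8.27, 8.21 and 8.60 in wild type, 9.04, 9.08 and 9.17 in ob/ob vehicle, and 8.90, 9.39 and 8.83 in ob/ob VE mice, with all ob/ob values above all wild type values. Its difference of 0.74 ± 0.23 had a limma adjusted p of 0.0635, which became 0.044 without wild type array 3 and 0.038 after each array was centred on its median, but 0.398 against wild type array 3 alone, where the difference was 0.50. Ctso, also a cysteine protease, differed by 0.39 (adjusted p = 0.507), and Ctsw, of cytotoxic lymphocytes, by 0.08. Ctsg, a serine protease of neutrophil granules, and Ctse, an aspartic protease, differed by -0.06 and 0.00. The signals of Ctse, Ctsg and Ctsw were dim, between 2.66 and 4.46. Of 8 placental cathepsins of the Ctsl gene cluster, 0 were called by limma, 1 had an unadjusted p under 0.05 (Ctsq, -0.79), and the median difference was -0.34, with Ctsm at -0.62, Ctsr at 0.41 and Cts8 at 0.60.

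Among inhibitors, 1 of 9 measured genes was called higher and 0 lower, with a median difference of -0.19. This count is near the share over all clusters, of which 9.02% were called higher and 5.05% lower. The same shares apply to the other list counts of ob/ob vehicle against wild type in the main fit. The called gene was Cstb, or stefin B, which binds cysteine cathepsins that leak into the cytosol. It read 9.85, 9.36 and 9.70 in wild type, 13.65, 12.63 and 12.27 in ob/ob vehicle, and 13.98, 13.32 and 13.10 in ob/ob VE mice. The ob/ob values stood above all wild type values, by 3.21 ± 0.37 for the vehicle group (limma adjusted p = 4.06e-04; 3.15 against wild type array 3 alone).

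Cst3, the secreted inhibitor cystatin C, read 15.37, 15.47 and 16.07 in wild type, 16.34, 15.88 and 16.46 in ob/ob vehicle, and 17.00, 16.68 and 17.05 in ob/ob VE mice. Its ob/ob VE arrays all lay above the ob/ob vehicle arrays, but the difference of 0.68 ± 0.27 was not called (limma adjusted p = 1). Nor was that between ob/ob vehicle and wild type (0.59 ± 0.27, adjusted p = 0.182). Between ob/ob VE and wild type it was called (1.27 ± 0.27, adjusted p = 0.00921), a call lost against wild type array 3 alone (0.84, adjusted p = 0.135) and after quantile normalization (0.77, adjusted p = 0.0603). Ctla2a, a propeptide-like inhibitor, read 10.35, 11.06 and 8.50 in wild type and 9.91 to 10.29 in ob/ob vehicle mice, and was called only against wild type array 3 alone (1.60, adjusted p = 0.00722). The remaining inhibitors, Cst6, Cst7, Stfa1, Stfa2, Stfa3 and Ctla2b, differed by -0.57 to 0.18 and did not pass.

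Of 12 measured genes that process, sort or accompany cathepsins, 7 were called higher in vehicle-treated ob/ob mice, 1 lower and 4 did not pass, with a median difference of 1.53. Lgmn, or legumain, the asparaginyl endopeptidase that cleaves cathepsin precursors to their mature chains, read 13.52, 12.80 and 12.82 in wild type, 16.75, 16.99 and 16.42 in ob/ob vehicle, and 16.57, 16.53 and 16.05 in ob/ob VE mice. The ob/ob groups overlapped and lay above wild type, by 3.67 ± 0.28 for vehicle (limma adjusted p = 3.9e-05; 3.90 against wild type array 3 alone).

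Gnptab, the enzyme that starts the mannose 6-phosphate tag on cathepsin precursors, was higher by 2.24 ± 0.25 (limma adjusted p = 3.16e-04), and Igf2r, the larger receptor for that tag, by 2.75 ± 0.43 (adjusted p = 0.00236). Igf2r was uneven among ob/ob vehicle mice, at 12.20, 13.99 and 13.75, yet above the wild type values of 10.15, 10.85 and 10.70. The smaller receptor M6pr was higher by 1.83 ± 0.40 (adjusted p = 0.0131), a call that ended on leaving out ob/ob vehicle array 2 (1.74, adjusted p = 0.0569) or against wild type array 3 alone (1.05, adjusted p = 0.0971). Other steps of the tag did not pass: Gnptg, a further subunit, differed by -0.21 and Nagpa, the uncovering enzyme, by 0.54.

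Psap, the saposin precursor, was higher by 2.16 ± 0.22 (limma adjusted p = 1.67e-04) and the lysosomal membrane protein Lamp1 by 1.23 ± 0.23 (adjusted p = 0.00593). Lamp2 differed by 0.77 (adjusted p = 0.0656; 0.0489 with each array centred on its median). The tetraspanin Cd63 was higher by 1.86 ± 0.42 (adjusted p = 0.0154), a call lost without ob/ob vehicle array 1 (adjusted p = 0.0592), without array 2 (adjusted p = 0.0538) and against wild type array 3 alone (1.18, adjusted p = 0.106). Sort1, or sortilin, a sorting receptor that adipocytes use for Glut4 vesicles, was the gene that moved the other way. It read 15.70, 16.51 and 15.24 in wild type and 14.04, 14.42 and 14.59 in ob/ob vehicle mice, with no overlap. It fell by 1.47 ± 0.34 (adjusted p = 0.0168), and this call too was lost without ob/ob vehicle array 1 (-1.31, adjusted p = 0.0636), without array 2 (-1.50, adjusted p = 0.0546) and against wild type array 3 alone (-0.89, adjusted p = 0.155).

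Of the Tfeb family of transcription factors, 3 of 4 were called higher and the median difference was 2.65. Mitf read 7.11, 7.90 and 7.41 in wild type, 10.07, 10.64 and 9.93 in ob/ob vehicle, and 10.60, 9.78 and 10.64 in ob/ob VE mice, a difference of 2.74 ± 0.33 for vehicle (limma adjusted p = 4.63e-04). Tfe3 was higher by 2.56 ± 0.33 (adjusted p = 7.73e-04) and Tfec, a member found mainly in macrophages, by 2.93 ± 0.27 (adjusted p = 9.5e-05). In these 3 genes the ob/ob arrays lay above all wild type arrays. Tfeb itself differed by 0.19 ± 0.25 (adjusted p = 0.676), with wild type values of 6.17, 6.32 and 5.71 and ob/ob vehicle values of 6.25, 5.95 and 6.58. These are transcript levels, and the activity of this family depends on its location in the cell. In the promoter windows, CACGTG was present in 3 of 7 listed cathepsins, Ctsd included, and 1 of 3 other cathepsins. It was present in 6 of 11 genes of the processing list, among them the unmeasured Glb1 and the uncalled Gnptg and Nagpa. The other hydrolases had it in 4 of 20. It was absent from inhibitors (0 of 8), the Tfeb family (0 of 4), substrates (0 of 7) and placental cathepsins (0 of 8). Of all genes with a window, 8.09% had it.

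**Figure D3:**
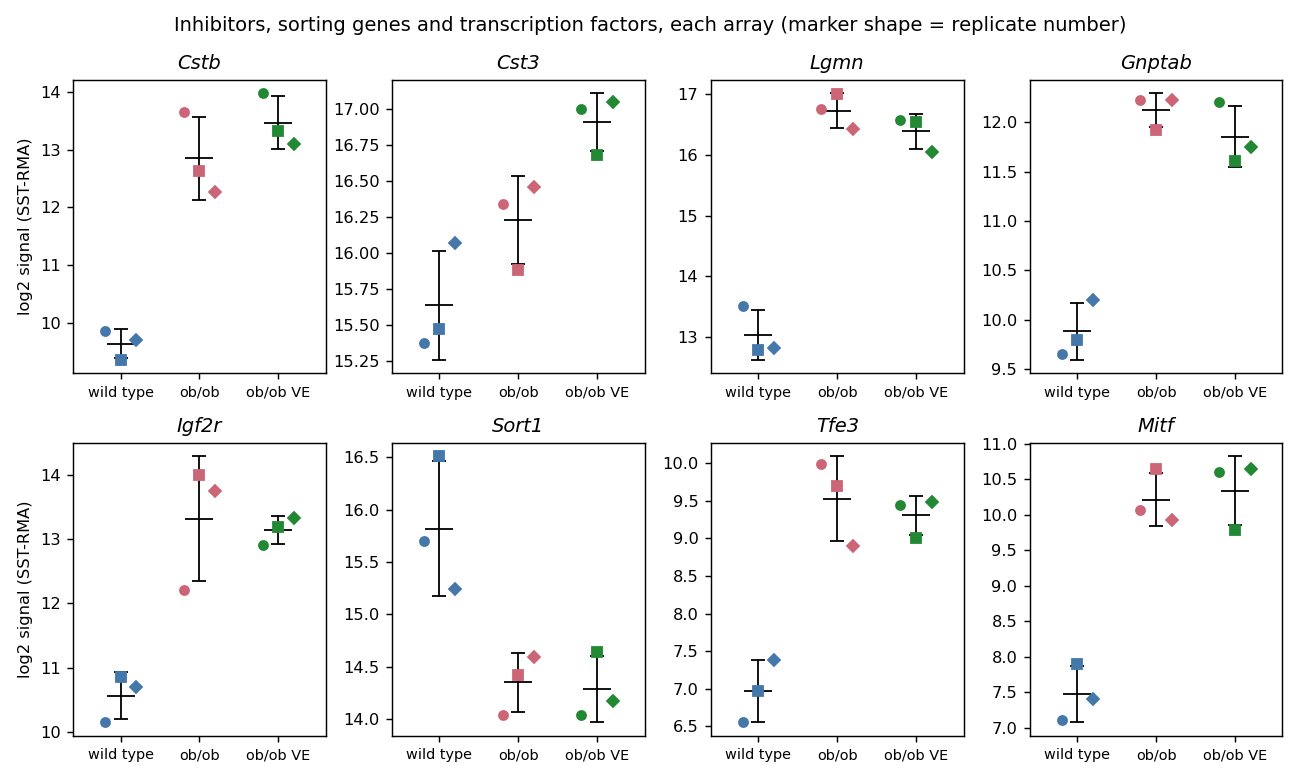
Log2 signal (vertical axis, own scale in each panel, not starting at 0) of the inhibitors Cstb and Cst3, the processing and sorting genes Lgmn, Gnptab, Igf2r and Sort1, and the transcription factors Tfe3 and Mitf on each of the 9 arrays; marker shapes give the replicate number and lines with bars the mean ± SD of 3 arrays. Sort1 is the panel in which wild type stands highest, and in Cst3 the ob/ob VE points stand above the ob/ob vehicle points.

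Of 10 measured transcripts of known substrates, among them the collagens Col1a1 and Col1a2, elastin (Eln) and the granule proteases that Ctsc activates, 0 passed limma's test in ob/ob vehicle against wild type, 1 had an unadjusted p under 0.05 (Eln), and the median difference was 0.19. Col1a1 differed by 0.72 (limma adjusted p = 0.315) and Eln by -0.57 (adjusted p = 0.125), which was called lower after quantile normalization (-0.83, adjusted p = 0.0404). Prtn3 differed by -0.32 and Cma1, a mast cell chymase, by 0.40. In ob/ob VE against wild type, Eln was called lower (-0.80, limma adjusted p = 0.032). This call was lost on leaving out wild type array 1 or 3 or any ob/ob VE array, at adjusted p of 0.0516 to 0.106. It was also lost with only the 2 groups fitted (0.064), the replicate number as a block (0.0531) and array weights (0.0525).

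Most other lysosomal hydrolases were also higher: 15 of 21 measured were called higher in vehicle-treated ob/ob mice, 0 lower, and the median difference was 1.47. Lipa, the acid lipase that releases fatty acids from lysosomal lipid, read 9.30, 9.81 and 9.69 in wild type and 14.53, 16.12 and 15.46 in ob/ob vehicle mice, a difference of 5.77 ± 0.38 (limma adjusted p = 2e-05). Gusb, beta-glucuronidase, was higher by 4.14 ± 0.32, Gla, alpha-galactosidase, by 3.17 ± 0.55, Galc by 2.99 ± 0.36, the tripeptidyl peptidase Tpp1 by 2.91 ± 0.38 and Hexa by 2.86 ± 0.35. Naglu was higher by 2.13 ± 0.33 and the acid ceramidase Asah1 by 1.42 ± 0.24. Against wild type array 3 alone, these 8 differed by 1.73 (Asah1) to 5.68 (Lipa). The calls of Gaa, Idua, Smpd1, Pla2g15, Acp2 and Galns were lost there. Leaving out single arrays also ended calls, at adjusted p from 0.0529 to 0.118: Gaa without wild type array 1 or ob/ob vehicle array 1 or 2, Idua, Sgsh and Smpd1 without wild type array 2 or ob/ob vehicle array 1 or 2, Smpd1 also without ob/ob VE array 2, and Galns without ob/ob vehicle array 1. Fuca1 (-0.45), Ids (0.25), Ppt1 (0.44), Arsb (0.37), Manba (0.49) and Man2b1 (1.29) did not pass. Man2b1 passed without wild type array 2 (2.25, adjusted p = 0.00536), on which it read 12.93 against 10.39 and 9.71.

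Markers of macrophages moved with the cathepsins. Of 18 measured, 15 were called higher in vehicle-treated ob/ob mice and 0 lower, with a median difference of 3.78. Adgre1, which encodes F4/80, read 8.35, 7.32 and 8.29 in wild type, 12.56, 13.14 and 12.14 in ob/ob vehicle, and 12.43, 12.34 and 11.23 in ob/ob VE mice. Csf1r read 9.10, 10.05 and 11.87 in wild type and 14.00 to 14.61 in ob/ob vehicle mice. The summed log2 signal of the list was 13.48, 14.19 and 15.48 on wild type arrays 1, 2 and 3, 18.56 to 19.38 in ob/ob vehicle and 18.58 to 18.83 in ob/ob VE mice. Gpnmb and Trem2, markers of lipid-laden macrophages, were higher by 10.05 ± 0.43 and 6.16 ± 0.42. Mertk, Lyve1 and Cd163 did not pass. Against wild type array 3 alone, Adgre1 and Csf1r differed by 4.32 and 2.35. Mrc1, Fcgr1 and C1qa differed there by 1.58, 1.42 and 1.79 and were no longer called. The defining marker Cd68 had no row. How much of the cathepsin difference goes with macrophage content was not tested.

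Other cell types whose cathepsins are well known gave fewer calls, but several of their lists were dim. On single arrays the list median was 4.845 to 5.97 for T and NK cell and 5.185 to 6.325 for neutrophil markers. The medians of whole arrays were 6.11 to 6.26. The defining markers Ly6g (neutrophil) and Pdgfra (stromal) had no row. Of 7 osteoclast-type markers, 3 were higher and 1 lower: Atp6v0d2, a proton pump subunit, by 8.80 ± 0.57, Acp5 by 1.98 ± 0.50 and Dcstamp by 1.71 ± 0.42, while Mmp9 fell by 1.99 ± 0.41. The calls of Acp5 (limma adjusted p = 0.0259) and Dcstamp (adjusted p = 0.0241) were lost against wild type array 3 alone, at 0.362 and 0.117. Without single arrays, Acp5 was lost on leaving out wild type array 1 or 2 or ob/ob vehicle array 1 or 3 (adjusted p from 0.0663 to 0.0926), and Dcstamp on leaving out wild type array 2 or ob/ob vehicle array 2 or 3 (0.0566 to 0.0933). The defining marker Calcr stayed dim, at 3.65 to 4.12, as did Ocstamp at 2.66 to 4.82. Of neutrophil markers 1 of 6 was higher (Csf3r, 1.33 ± 0.33, adjusted p = 0.025; 0.0678 to 0.0958 without wild type array 2 or ob/ob vehicle array 2 or 3, and 0.0944 against wild type array 3 alone). S100a8 had the largest difference of the 6 neutrophil markers but was not called (2.11, limma adjusted p = 0.0992). It read 7.09, 5.39 and 5.71 in wild type mice, below every ob/ob vehicle value (mean 8.17). It was called with only the 2 groups fitted (adjusted p = 0.0257) and without ob/ob VE array 1 (0.044) or 3 (0.0287). In ob/ob VE mice S100a8 ranged from 6.23 to 9.82. Of mast cell, T and NK cell, stromal and adipocyte markers 0 of 6, 0 of 8, 0 of 4 and 0 of 9 were called by limma, and 1, 0, 1 and 1 had an unadjusted p under 0.05. Without wild type array 3, Plin1 (0.83), Lipe (1.26), Cidec (1.40) and Lum (2.45) were called higher, at limma adjusted p of 0.00951 to 0.0436. Without wild type array 2, Cpa3 was called higher (2.015, adjusted p = 0.0188). Plin1 read 14.14, 13.76 and 15.35 on wild type arrays 1, 2 and 3, and Lipe 15.76, 15.32 and 17.05. The mast cell marker Kit was called lower against wild type array 3 alone (-1.87, adjusted p = 0.00964). In ob/ob VE against wild type, 4 of 7 osteoclast-type markers were higher and Mmp9 was lower. The further one called higher was Ocstamp (1.27 ± 0.33, limma adjusted p = 0.0223, and 0.0685 and 0.0843 without ob/ob VE arrays 2 and 3). The Mmp9 call in this comparison was lost without ob/ob VE array 1 or 3 (adjusted p = 0.0513 each). There Cidec, Cpa3 and Lum, of the adipocyte, mast cell and stromal lists, were higher and Kit lower, at adjusted p of 0.0273 to 0.0416. Each of these 4 calls was lost without ob/ob VE array 1 and without ob/ob VE array 3 (adjusted p from 0.0813 to 0.137), and also without 1 or more of the wild type arrays (0.0525 to 0.129). Without wild type array 3, Adipoq, Plin1, Lipe, Pnpla2 and Pparg were called higher in ob/ob VE mice (limma adjusted p from 0.0108 to 0.0369). The part of these cell types in the results was not tested.

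Under VE, 0 genes of any of these lists were called against ob/ob vehicle by limma. An unadjusted p under 0.05 was reached by the inhibitors Cst3 and Ctla2b, by 1 placental cathepsin (Ctsr), by 1 macrophage marker and by 1 adipocyte marker. Over all 19572 clusters 893 reached it, so no effect of VE is read from these genes. Ctla2b read 5.75, 5.92 and 5.37 in ob/ob vehicle and 6.08, 6.22 and 6.47 in ob/ob VE mice, a difference of 0.58 ± 0.23 with no overlap that did not pass after adjustment (adjusted p = 1). Trem2 read 11.05, 10.39 and 9.34 in ob/ob vehicle and 11.68, 11.43 and 11.13 in ob/ob VE mice (difference 1.15). Adipoq read 18.52, 18.07 and 18.37, then 18.89, 18.94 and 19.06 (0.64). Neither overlapped between these groups, a pattern found in either direction in 12.6% of all clusters. Upward it was found in 2 inhibitors, 1 macrophage marker and 2 adipocyte markers. Downward it was found in 1 gene each of the other cathepsin, placental cathepsin, inhibitor, substrate, epithelium, mast cell and T and NK cell lists. Gzmb is both the substrate and the T and NK cell gene. The median difference was -0.22 for processing and sorting genes, -0.05 for the Tfeb family, -0.11 for the other hydrolases and 0.09 for macrophage markers. Differences lay above 0 in 10 of 18 macrophage and 9 of 9 adipocyte markers, beside 46.6% of all clusters. The adipocyte median was only 0.10, and these genes were read on the same arrays, so no direction is read from this count.

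**Figure D4:**
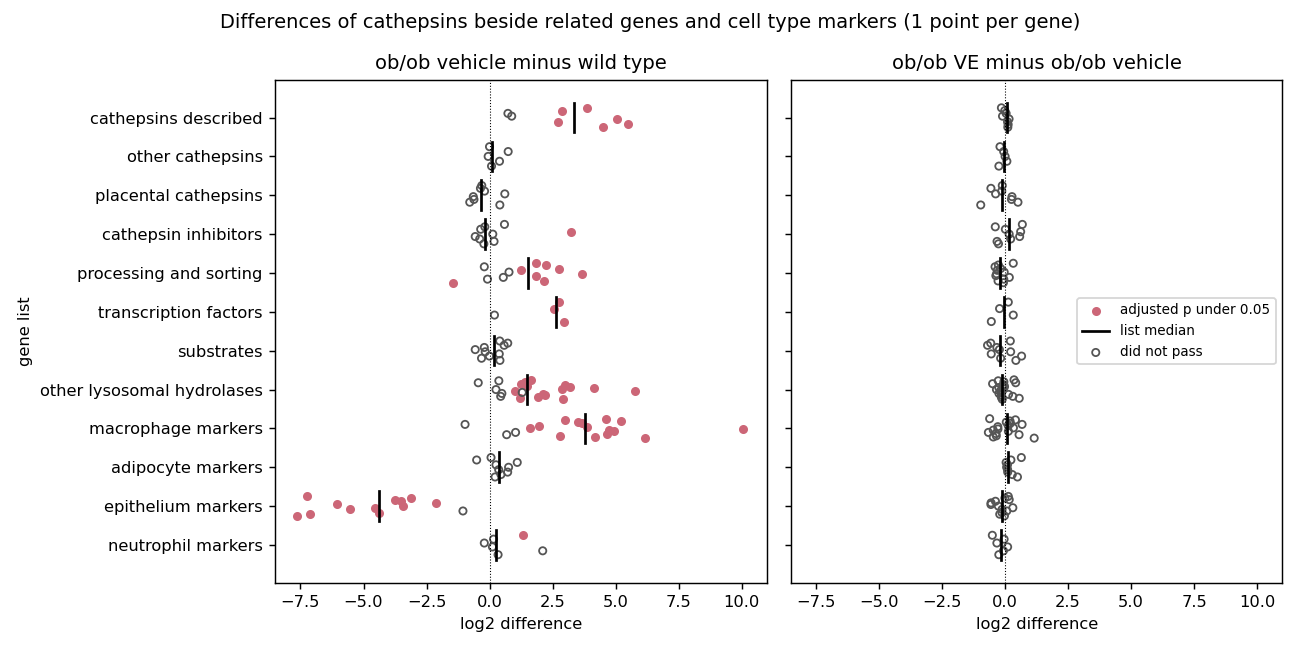
Log2 difference (horizontal axis) of each gene in 12 lists (vertical axis) for ob/ob vehicle minus wild type (left) and ob/ob VE minus ob/ob vehicle (right); filled points passed an adjusted p under 0.05 in limma, open points did not, and the black line is the list median. On the left the cathepsins, the Tfeb family and the macrophage markers have medians of 3.36, 2.65 and 3.78 and the epithelium markers -4.40, and on the right no point is filled.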

How the data were processed

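RNA of 9 mice (3 a group) was read on Clariom S arrays. The deposited table holds log2 values, normalized by the authors with SST-RMA; their software, Transcriptome Analysis Console, is given as 4.0.2 in the design text and as 4 in the submitters' processing notes. Values were used as deposited, 1 per transcript cluster and array; detection calls were not used, so dim signals have no background limit. Precision is limited by the number of arrays. No genome build is given in the sources used here. Of 22206 clusters, 19572 carry 1 gene symbol in the platform annotation and were tested.

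Group means were fitted with limma 3.58.1 (R 4.3.3) over all 9 arrays, moderated by empirical Bayes (4.02 prior degrees of freedom), with two-sided tests and Benjamini-Hochberg adjustment over the 19572 clusters in each comparison. A call is an adjusted p under 0.05. P-values measure the spread between single mice. The design text gives the authors' own threshold as a fold over 1.1 at an unadjusted p under 0.05.

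The members and gene lists were chosen with earlier results of these data known. The text names all members and, of the lists of related genes, those called and 2 from each end of the ranking by moderated t; marker lists are given by counts, defining markers and examples. Of 163 list entries, 15 had no row with their symbol and are not analysed here. Likeness of profiles is the root mean square distance of centred log2 values over 9 arrays. Motifs were searched in RefSeq promoter windows (GRCm38.p6). Summed signals are log2 of the sum of linear values. The fit was tested on simulated data. Alternatives were the groups in the fit, the replicate number as a block, the prior, array weights, normalization, a filter on the dimmest 30%, unnamed clusters included, the authors' threshold and each array left out. Replicate numbers were checked as pairs: deviations of same-numbered arrays correlated at -0.064 to 0.181, and those of differently numbered arrays at -0.271 to 0.158. Between the ob/ob groups, same-numbered arrays correlated at 0.099, 0.181 and 0.029 and differently numbered arrays at -0.271 to 0.138. With 3 arrays a group this check cannot exclude pairing or a shared batch.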

Additional observations from a re-analysis of the deposited data

How the results depend on the processing

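With 3 mice a group, differences between the ob/ob groups could be missed, and no detection limit was computed. Trem2 differed by 1.15 between them with no overlap and was not called. Such separation occurred in 12.6% of all clusters, so it does not show a missed difference. The count of cathepsins called stayed at 6, 0 and 6 in ob/ob vehicle against wild type, ob/ob VE against ob/ob vehicle and ob/ob VE against wild type under every alternative run, except 7 at the authors' threshold (Ctsh, unadjusted p 0.0416, ob/ob vehicle against wild type) and 7 without wild type array 3 (Ctsc, ob/ob VE against wild type). The replicate number as a block gave 6, 0 and 6 cathepsins and 2572, 0 and 3731 clusters over all genes. The labels do not say whether this number marks a pair or a batch. Counts over all clusters, mainly 2754, 5 and 3920, moved more. In ob/ob vehicle against wild type they were 1814 with only the 2 groups fitted, 5555 at the authors' threshold and 1641 to 3545 with an array left out, the lowest without ob/ob vehicle array 2. In ob/ob VE against ob/ob vehicle they were 19 with 2 groups, 12 with a robust prior, 41 with array weights, 893 at the authors' threshold, 19 without wild type arrays 1 and 2, and 0 to 21 with an array left out, with 9 without wild type array 3, 21, 0 and 1 without ob/ob vehicle arrays 1, 2 and 3, and 0 without any ob/ob VE array. In ob/ob VE against wild type they were 6630 at the authors' threshold and 2314 to 4706 with an array left out, with 2314 and 2342 without ob/ob VE arrays 1 and 2. Signs of the small VE differences turned, none of them called: Ctsc to -0.090 with array weights and -0.19 with quantile normalization, where Ctsl, Ctss and Ctsz became -0.098, -0.086 and -0.082, and Ctsb to 0.0033 with median centring. With an array left out, VE differences ran from -0.43 to 0.26 for Ctsa, -0.083 to 0.11 for Ctsb, -0.33 to 0.37 for Ctsc, -0.41 to 0.10 for Ctsh, -0.01 to 0.33 for Ctsk, -0.03 to 0.26 for Ctsl, -0.085 to 0.36 for Ctss and -0.12 to 0.29 for Ctsz. Ctsc became -0.44 and -0.40 for the ob/ob vehicle and ob/ob VE groups against wild type array 3 alone. The cause of these moves was not tested. Another row for a gene was not run, since each measured cathepsin has 1 row.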
